A study of Homo sapiens with 5 samples.

Results

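The elastic fibre and fibulin genes are 10 human genes whose products build or decorate elastic fibres: ELN, FBN1, FBN2, MFAP4, MFAP5, FBLN5, EFEMP1, EFEMP2, FBLN1 and FBLN2. They were chosen by name, not by a cutoff on measured values, though with earlier results of these data known. They are 10 of 38481 genes with a value in the tables. Of the 10, 9 had a mean level of at least 1 FPKM over the 5 libraries, as had 13277 genes in all. FPKM, a level corrected for length, counts fragments per kilobase of a transcript relative to the size of the library. The study sequenced total RNA of WI-38, a line of human diploid fibroblasts from lung, in 5 groups of 1 library each. The groups were cells at a population doubling level (PDL) of 55, cells at PDL 15, and PDL 15 cells given AUF1 siRNA, HuR siRNA or a control siRNA. All 5 came from 1 cell line, without crosslinking or immunoprecipitation, and no siRNA sequence, dose or time is given in the labels. Population doubling level counts the divisions a culture has passed through, and fibroblasts at high levels approach replicative senescence. AUF1 and HuR are RNA-binding proteins that bind AU-rich and U-rich sequences in mRNAs.

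Elastic fibres give lung, skin and arteries their recoil. They consist of a core of crosslinked elastin, secreted as tropoelastin by fibroblasts and smooth muscle cells, laid down on a scaffold of fibrillin microfibrils. Fibulins are secreted glycoproteins with repeated calcium-binding EGF-like domains that bind tropoelastin, fibrillins or lysyl oxidases, and microfibril-associated proteins bind along the scaffold.

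With 1 library per group there is no replicate check, no p-value and no SD, and every difference below is one between 2 libraries. Each level is given with the 95% bounds the authors deposited, summed over the transcripts of the gene, which describe the estimate within a library only. Levels come in 2 forms: the annotated level sums the Ensembl transcripts, and the combined level adds spliced transcripts that were assembled from the reads within the gene. Ratios are log2((FPKM + 1)/(FPKM + 1)) minus the median ratio of all genes kept. Differences between low levels come out too small on it, and at least 2-fold means a size of at least 1 on it. The number of reads is unknown. Coverage per FPKM, which scales with depth, was 1.14 to 1.29 in the other 4 libraries but 0.300 with control siRNA, where assembled transcripts under 100 nt took 73.9% of the sum of FPKM times length. HNRNPD, the gene of AUF1, had 20.3 FPKM (16.7 to 24.0) with AUF1 siRNA, against 61.2 FPKM (48.0 to 74.4) with control siRNA. It had 120.3 FPKM with HuR siRNA, 42.3 FPKM at PDL 55 and 119 FPKM at PDL 15. ELAVL1, the gene of HuR, had 9.72 FPKM (8.59 to 10.8) with HuR siRNA, against 11.8 FPKM (9.38 to 14.1) with control siRNA, so their bounds overlapped. It had 17.7 FPKM with AUF1 siRNA, 12.2 FPKM at PDL 55 and 16.7 FPKM at PDL 15. Of 10 fibroblast markers, 7 to 10 reached 1 FPKM in each library, and of 7 epithelial, 6 endothelial and 6 blood markers at most 2 each did. Of 7 smooth muscle markers 4 to 5 did, with summed levels of 258 to 679 FPKM, mostly TAGLN and ACTA2, contractile genes that cultured fibroblasts also express, while MYH11 stayed at or below 1.14 FPKM. A value of exactly 0 can be a failed estimate in these tables. VIM and CFL1, which fibroblasts express at high levels, were listed at 0 with control siRNA, and 15 of 84 ribosomal protein genes were listed at 0 in at least 1 library.

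ELN encodes tropoelastin (ENSG00000049540, hg19 chromosome 7, 73442119 to 73484237). Its transcripts were scarce in all 5 libraries. The annotated level was 0.136 FPKM (0.0719 to 0.200) at PDL 55, against 0.410 FPKM (0.291 to 0.528) at PDL 15. It was 0.189 FPKM (0.0879 to 0.290) with AUF1 siRNA and 1.25 FPKM (0.817 to 1.69) with HuR siRNA, against 3.19 FPKM (1.26 to 5.12) with control siRNA. The mean of 1.04 FPKM passed the minimum only through the control siRNA library, so its differences against that library follow from how it was kept. In that library 92.2% of the level came from ENST00000479432, a 542-nt transcript of status LOWDATA that was listed at 0 in the other 4. ENST00000380553, of 2703 nt, was listed at 0 at PDL 55, against 0.410 FPKM at PDL 15, and carried 0.189 FPKM with AUF1 siRNA and 0.675 FPKM with HuR siRNA, where control siRNA was listed at 0. The only spliced assembled ELN transcript was in the AUF1 siRNA library, at 0.276 FPKM.

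FBN1 and FBN2 encode fibrillin-1 and fibrillin-2, the large glycoproteins that polymerise into microfibrils. FBN1 (ENSG00000166147, hg19 chromosome 15, 48700503 to 48937985) had 38.5 FPKM (37.4 to 39.6) at PDL 55, against 55.2 FPKM (53.7 to 56.7) at PDL 15. It had 53.9 FPKM (52.5 to 55.3) with AUF1 siRNA and 52.9 FPKM (51.3 to 54.4) with HuR siRNA, against 32.7 FPKM (28.96 to 36.5) with control siRNA. The PDL 15, AUF1 siRNA and HuR siRNA libraries were thus close, each overlapping its neighbour in the order of levels, and PDL 55 and control siRNA lay below them. An assembled transcript of 8368 nt added 28.7 FPKM with HuR siRNA, for a combined level of 81.6 FPKM. One of 8369 nt added 19.1 FPKM at PDL 15, for 74.3 FPKM. The full-length 11695-nt ENST00000316623 held 33.0% of the annotated level at PDL 55, 41.6% at PDL 15, 33.9% with AUF1 siRNA, 46.6% with HuR siRNA and 22.2% with control siRNA. Most of the rest was the 8365-nt ENST00000544030, and with control siRNA also the 3767-nt ENST00000537463 at 9.92 FPKM.

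FBN2 (ENSG00000138829, hg19 chromosome 5, 127593601 to 127994878), whose product is best known from embryonic microfibrils, varied far more. It had 4.69 FPKM (4.47 to 4.91) at PDL 55, against 32.6 FPKM (32.0 to 33.2) at PDL 15. The level was 24.7 FPKM (24.1 to 25.2) with AUF1 siRNA and 34.0 FPKM (33.3 to 34.6) with HuR siRNA, against 11.8 FPKM (10.5 to 13.0) with control siRNA. No neighbours in that order had overlapping bounds, and PDL 55 was the lowest of the 5. The 10724-nt ENST00000262464 held the whole level in every library but control siRNA, where the 11132-nt ENST00000508053 was listed at 4.14 FPKM beside its 7.66 FPKM. FBN1 exceeded FBN2 in each of the 5 libraries, at 38.5 against 4.69 FPKM at PDL 55.

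MFAP4 and MFAP5 encode microfibril-associated proteins: MFAP4 is a fibrinogen-domain protein that binds tropoelastin and fibrillin, and MFAP5, also called MAGP2, binds fibrillins. MFAP4 (ENSG00000166482, hg19 chromosome 17, 19286755 to 19290553) had the highest annotated level of the members at PDL 15. It had 24.8 FPKM (23.5 to 26.1) at PDL 55, against 196 FPKM (193 to 199.6) at PDL 15. The PDL 55 value was wholly ENST00000299610, which had status LOWDATA in that library only. The level was 58.3 FPKM (56.5 to 60.0) with AUF1 siRNA and 53.9 FPKM (52.1 to 55.7) with HuR siRNA, against 22.6 FPKM (18.6 to 26.6) with control siRNA. The untransfected PDL 15 library therefore stood above all 3 siRNA libraries, and the bounds of PDL 55 and control siRNA overlapped. Assembled transcripts of 2502, 2167 and 2126 nt raised the level to 44.7 FPKM at PDL 55, 71.1 FPKM with HuR siRNA and 36.3 FPKM with control siRNA, and none was present in the other 2 libraries.

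MFAP5 (ENSG00000197614, hg19 chromosome 12, 8789942 to 8815484) was the only member with a higher level at PDL 55 than at PDL 15 beyond the bounds. It had 3.73 FPKM (2.13 to 5.34) at PDL 55, against 0.972 FPKM (0.101 to 1.88) at PDL 15. The level was 2.56 FPKM (1.08 to 4.04) with AUF1 siRNA and 1.21 FPKM (0.211 to 2.20) with HuR siRNA, against 2.15 FPKM (0.0506 to 4.91) with control siRNA. Apart from PDL 55 against PDL 15, every pair of libraries overlapped. Short transcripts carried it: ENST00000535411, of 585 nt, had 2.37 FPKM at PDL 55 and 0.258 FPKM at PDL 15, and ENST00000543467, of 388 nt, had 1.36 and 0.612 FPKM in the same libraries.

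FBLN5, EFEMP1 and EFEMP2 encode the short fibulins. Fibulin-5 and fibulin-4, the product of EFEMP2, are needed for elastic fibre assembly in mice, where they bring lysyl oxidases and tropoelastin together. Fibulin-3, from EFEMP1, is abundant in fascia and eye. EFEMP2 (ENSG00000172638, hg19 chromosome 11, 65633912 to 65641063) gave no measurement: all 20 annotated transcripts were listed at 0 in all 5 libraries, with a failed status in control siRNA. MUS81, which lies beside it, was also listed at 0 throughout, so these zeros are not read as absence.

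FBLN5 (ENSG00000140092, hg19 chromosome 14, 92335758 to 92414046) depended on which transcripts were summed. Its annotated level was listed at 0 at PDL 55, against 50.1 FPKM (48.6 to 51.5) at PDL 15. It was 31.0 FPKM (29.8 to 32.2) with AUF1 siRNA and 5.32 FPKM (4.71 to 5.94) with HuR siRNA, against 19.5 FPKM (17.6 to 21.5) with control siRNA. The whole of it was the 2630-nt ENST00000342058, which had status LOWDATA at PDL 55. At PDL 55 a spliced assembled transcript of 2397 nt held 44.4 FPKM (43.0 to 45.8), so that the combined level lay close to the 50.1 FPKM of PDL 15. With HuR siRNA assembled transcripts of 746 nt and 1799 nt held 40.6 and 10.8 FPKM, for a combined level of 56.7 FPKM. The low annotated values at PDL 55 and with HuR siRNA thus coincided with FBLN5 signal listed under assembled transcripts.

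EFEMP1 (ENSG00000115380, hg19 chromosome 2, 56093102 to 56151274) had the highest annotated level of the members at PDL 55 and with HuR siRNA. It had 41.1 FPKM (38.2 to 44.0) at PDL 55, against 76.9 FPKM (72.9 to 80.8) at PDL 15. The level was 38.2 FPKM (35.3 to 41.1) with AUF1 siRNA and 103 FPKM (98.0 to 108) with HuR siRNA, against 23.9 FPKM (19.5 to 28.3) with control siRNA. Its bounds overlapped only between PDL 55 and AUF1 siRNA. Almost no EFEMP1 signal lay outside the annotation: an assembled transcript with control siRNA added 2.74 FPKM. ENST00000405693, of 1837 nt, held 44.0% of the level with AUF1 siRNA, 72.2% with HuR siRNA and 46.1% with control siRNA, and 61.6% at PDL 55 and 69.5% at PDL 15. ENST00000355426, of 1820 nt, held the remainder and had status LOWDATA in every library.

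FBLN1 and FBLN2 encode the larger fibulins, found in elastic fibres and basement membranes, where they bind fibronectin, laminin and, for fibulin-2, fibrillin-1. FBLN1 (ENSG00000077942, hg19 chromosome 22, 45898118 to 45997015) had 5.63 FPKM (4.62 to 6.64) at PDL 55, against 132 FPKM (126 to 137) at PDL 15. It had 70.5 FPKM (66.6 to 74.4) with AUF1 siRNA and 51.0 FPKM (47.7 to 54.3) with HuR siRNA, against 17.7 FPKM (14.4 to 21.0) with control siRNA. None of these bounds overlapped. Combined levels were 7.46 FPKM at PDL 55, 304 FPKM at PDL 15, 86.3 FPKM with AUF1 siRNA, 85.6 FPKM with HuR siRNA and 37.5 FPKM with control siRNA, so the order of the 5 libraries was kept while AUF1 and HuR siRNA came together. At PDL 15 assembled transcripts of 2825, 2172 and 1616 nt added 37.5, 61.5 and 73.6 FPKM. The 872-nt ENST00000476366 held 72.9% of the annotated level at PDL 55 and 79.2% at PDL 15, but it was listed at 0 with control siRNA, where the 2896-nt ENST00000327858 led with 9.38 FPKM.

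FBLN2 (ENSG00000163520, hg19 chromosome 3, 13573824 to 13679922) had 1.15 FPKM (0.321 to 1.99) at PDL 55, against 13.4 FPKM (10.3 to 16.4) at PDL 15. The level was 7.87 FPKM (5.58 to 10.2) with AUF1 siRNA and 5.41 FPKM (3.33 to 7.49) with HuR siRNA, against 0.400 FPKM (0.105 to 0.694) with control siRNA. Bounds overlapped between AUF1 and HuR siRNA and between PDL 55 and control siRNA. The 427-nt ENST00000421373 held 59.2% of the annotated level at PDL 15 and had status LOWDATA in every library. It was listed at 0 with control siRNA, where an assembled transcript of 3740 nt brought the combined level to 2.07 FPKM.

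**Figure D1:**
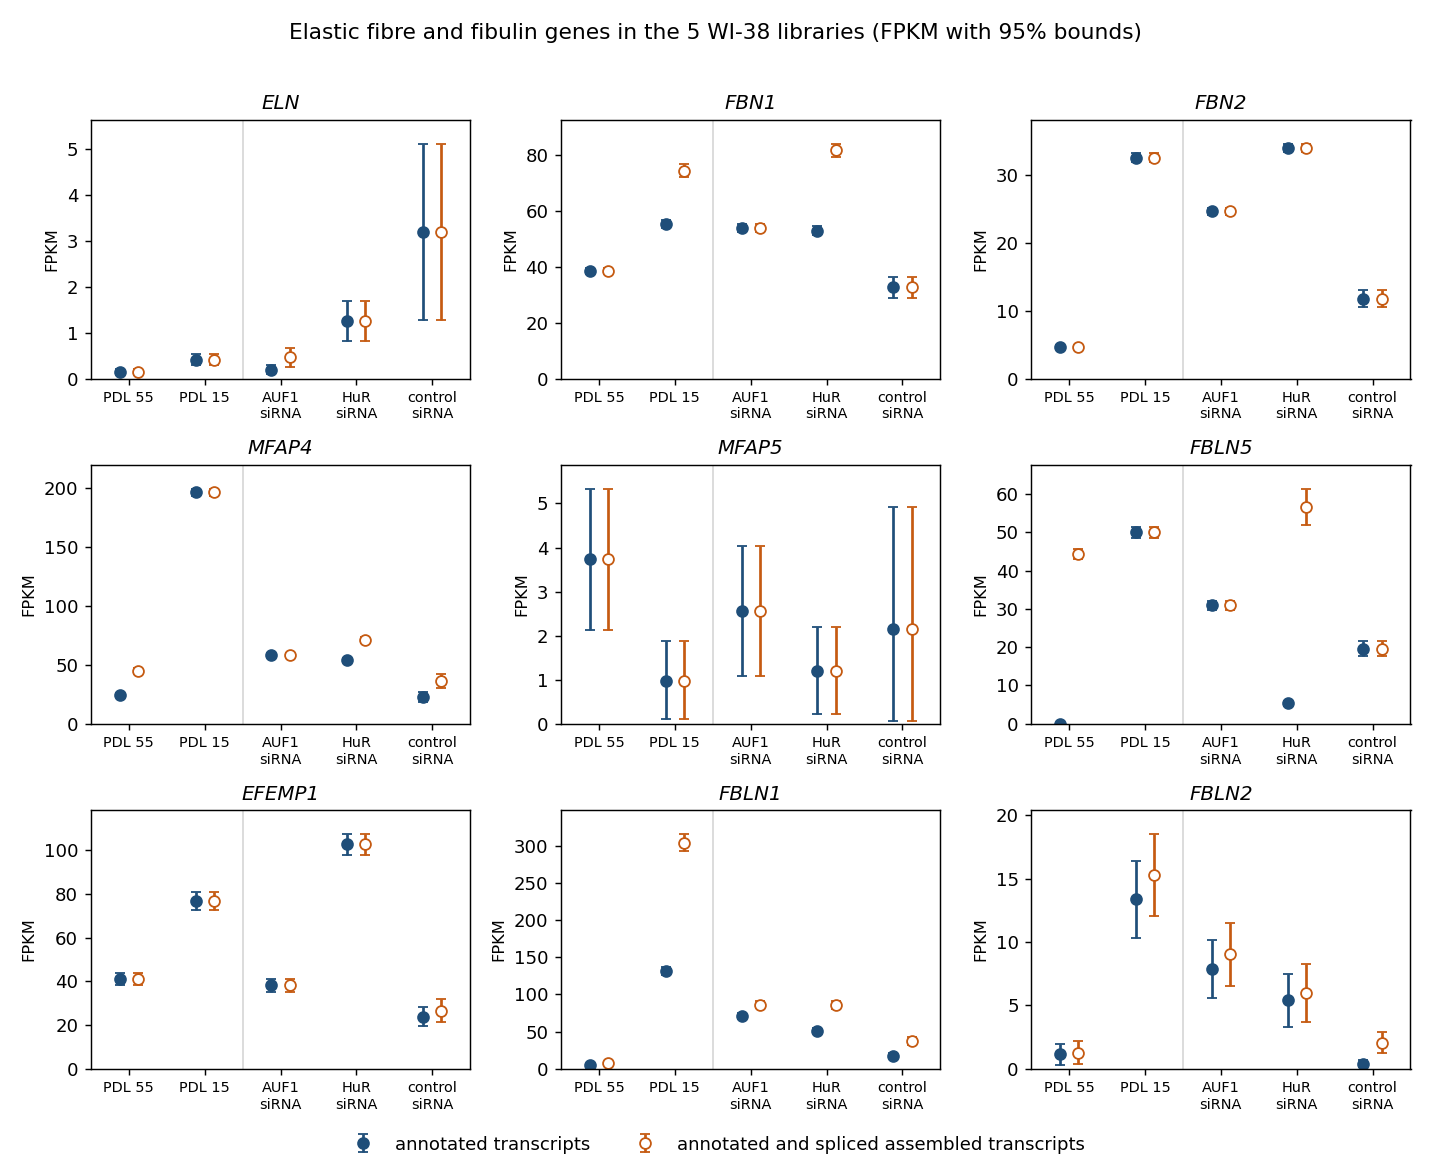
FPKM of the 9 measured members in each of the 5 libraries, on linear axes with a scale of their own; filled points are annotated levels, open points combined levels, and bars the summed 95% bounds. FBLN1, FBLN2, FBN2 and MFAP4 were far below PDL 15 at PDL 55 in both forms, while the FBLN5 points at PDL 55 separate into 0 and 44.4 FPKM.

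**Figure D2:**
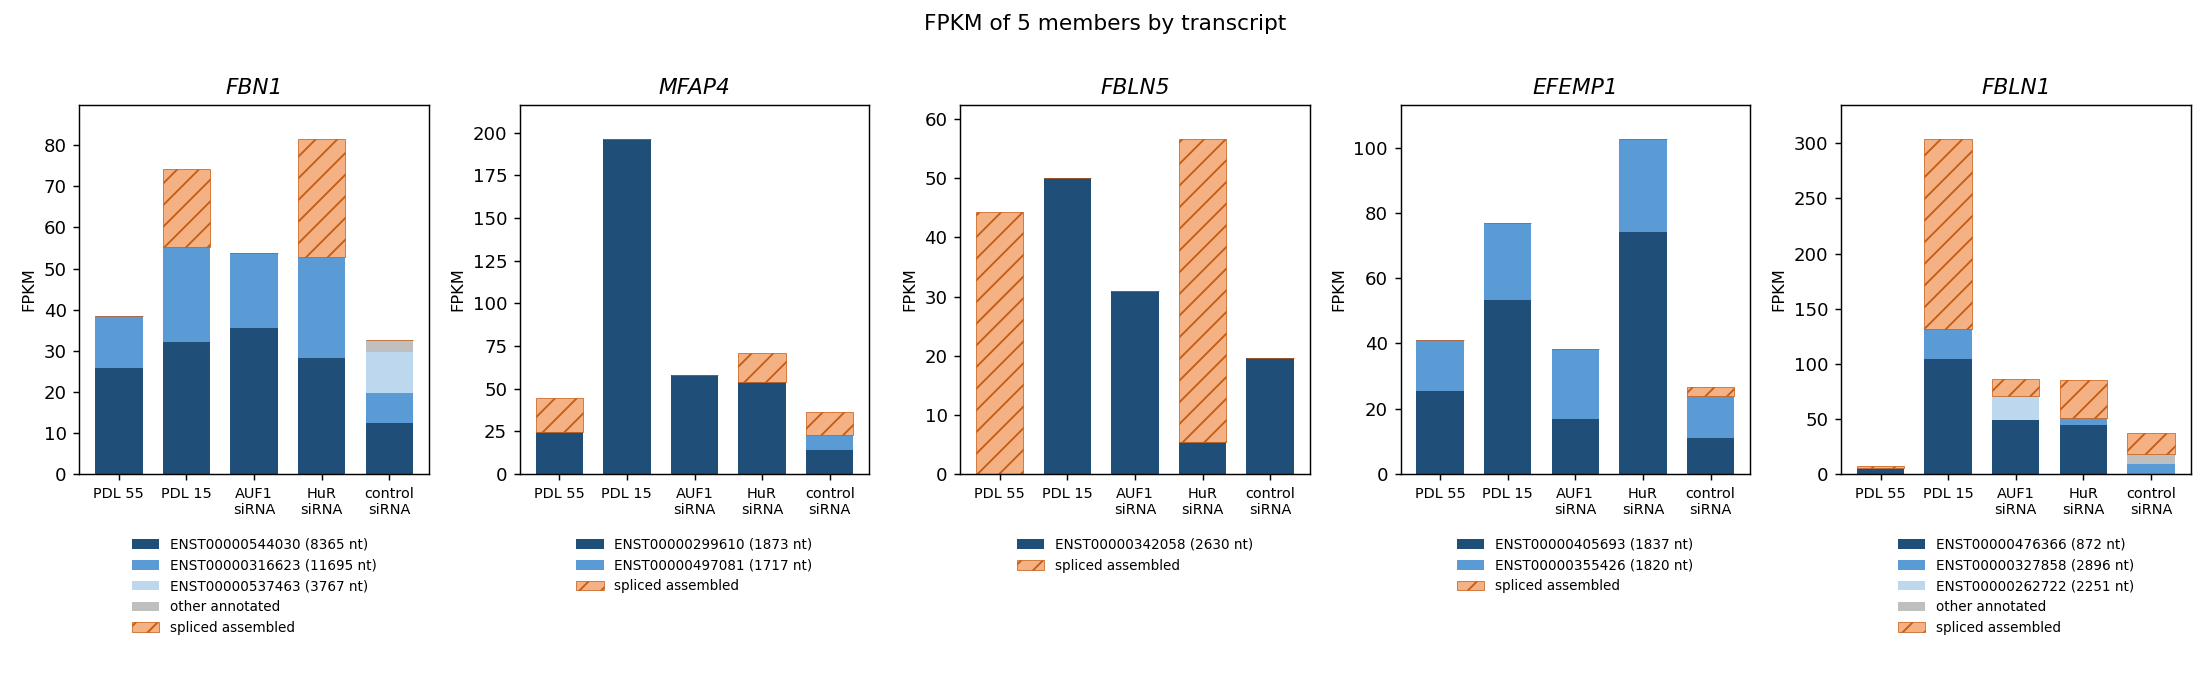
FPKM of FBN1, MFAP4, FBLN5, EFEMP1 and FBLN1 in each library, stacked by transcript, with spliced assembled transcripts hatched. EFEMP1 was almost wholly annotated, whereas assembled transcripts held the whole FBLN5 level at PDL 55 and 56.7% of the combined FBLN1 level at PDL 15.

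The comparison of PDL 55 with PDL 15 asks how late-passage fibroblasts differ from early ones. FBLN1, FBLN2, FBN2 and MFAP4 were lower at PDL 55, MFAP5 was higher, and FBN1 and EFEMP1 were less than 2-fold apart. ELN had 0.136 FPKM at PDL 55, against 0.410 FPKM at PDL 15, with bounds apart. With 1 added to each, levels this low cannot reach 2-fold on the ratio. Of the 9 members 5 were at least 2-fold lower on the annotated level, FBLN5 at its listed 0 included, beside 10.2% of the 12876 genes compared, and 1 was at least 2-fold higher, beside 9.47%. On the combined level 4 were lower and 1 higher, beside 8.76% and 8.41% of 13430 genes. FBLN1 had the lowest ratio of the members with a value in both libraries, -4.00 (-4.30 to -3.74), and -4.86 on the combined level. MFAP4 had -2.62 (-2.71 to -2.52), and -1.80 combined. FBLN2 had -2.42 (-3.40 to -1.60), and -2.53 combined. FBN2 had -2.24 (-2.32 to -2.16), and -2.25 combined, whereas its relative FBN1 had -0.19 (-0.27 to -0.11), and -0.62 combined. The other fibrillin was thus well inside 2-fold on either level. EFEMP1 had -0.57 (-0.74 to -0.39) and MFAP5 had 1.58 (0.44 to 2.85). ELN had 0.010 (-0.19 to 0.22), and -0.72 with 0.1 added in place of 1. No size is given for the annotated ratio of FBLN5, since its count as lower rests on the listed 0, and its combined ratio was 0.14. With FBLN5 left out, 4 of 8 members were lower on the annotated level. The median of the 8 members other than FBLN5 was -1.40 and that of all 9 on the combined level was -0.62, where the median of all genes is 0 by construction.

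All 7 proliferation markers (MKI67, TOP2A, CCNB1, CCNA2, BUB1, AURKB and CDK1) were also at least 2-fold lower at PDL 55, with a summed level of 7.88 FPKM, against 62.0 FPKM at PDL 15. The 10 fibroblast markers summed to 2198 FPKM at PDL 55, against 4729 FPKM at PDL 15, with 3 of 8 measured at least 2-fold lower, COL3A1 and FAP among them, and combined 3 lower and 1 higher. The part of either in the members' levels was not tested. In bulk RNA, fewer cells of a type and less RNA per cell cannot be told apart. The control siRNA library is also PDL 15, and against it the members behaved differently: FBLN1 had a ratio of -1.54 (-2.01 to -1.06) and FBN2 of -1.22 (-1.41 to -1.01), while MFAP4 had 0.081 (-0.22 to 0.42) and 0.24 combined. FBLN2 had 0.58 (-0.41 to 1.39), but -0.49 combined and -2.24 when the combined level was weighted by transcript length, so its direction depended on the transcripts summed. In that pair 4 of 9 members were at least 2-fold lower, beside 16.1% of genes, and 0 were higher, beside 15.4%. The 4 include FBLN5 at its listed 0 and ELN, which was kept only through the control siRNA library. On the combined level 3 were lower and 1 higher, beside 14.2% and 13.2%, the higher one being FBLN5 at 1.09. So FBLN1 and FBN2 were at least 2-fold lower at PDL 55 against both PDL 15 libraries without a named knockdown, and MFAP4 was so only against the untransfected one, on the annotated and the combined level.

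Control siRNA against untransfected PDL 15 compares cells of the same doubling level without a named knockdown. FBLN1, FBLN2, MFAP4 and EFEMP1 were lower with control siRNA on the annotated and combined levels. ELN and MFAP5 were higher at low levels, and FBN1, FBN2 and FBLN5 were less than 2-fold apart. Of 9 members 4 were at least 2-fold lower, beside 11.5% of 12910 genes, and 2 were higher, beside 13.5%, and the combined counts were also 4 and 2, beside 8.76% and 11.9%. FBLN2 had -2.94 (-3.56 to -2.33) and -2.00 combined, but -0.35 when the combined level was weighted by transcript length. In that weighted form EFEMP1 had -0.998, just inside 2-fold, and FBN2 had -1.01, just past it. MFAP4 had -2.65 (-2.94 to -2.40) and -2.00 combined, and FBLN1 had -2.41 (-2.74 to -2.12) and -2.58 combined. EFEMP1 had -1.23 (-1.58 to -0.92) and -1.09 combined. ENST00000421373 of FBLN2 and ENST00000476366 of FBLN1, which led at PDL 15, were listed at 0 with control siRNA, which can be a failed estimate. FBN2 had -0.98 (-1.15 to -0.81), close to the 2-fold limit, FBLN5 had -0.90 (-1.08 to -0.72) and FBN1 had -0.32 (-0.53 to -0.13). The 2 higher members were ELN at 1.99 (0.98 to 2.66) and MFAP5 at 1.09 (-1.04 to 2.84). ELN was kept only through the control siRNA library, so its place as higher follows from that, and the MFAP5 bounds overlapped. Transfection, the shallower coverage and the short assembled transcripts of the control siRNA library cannot be told apart here. Of the 7 fibroblast markers measured in this pair, 6 were also at least 2-fold lower with control siRNA on the annotated level, 1 of them PDGFRB at a listed 0, and 4 were on the combined level, where PDGFRB had -0.087. THY1 was higher, with a combined level of 173 FPKM with control siRNA, against 54.6 FPKM at PDL 15. Their part in the members' levels was not tested.

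Which transcripts differ when AUF1 is reduced was read from the AUF1 siRNA library against that of control siRNA. FBLN1, FBLN2 and MFAP4 were higher with AUF1 siRNA on the annotated level, and of these only FBLN2 stayed past 2-fold on the combined level. Weighted by transcript length, the combined FBLN2 level turned to a ratio of -0.18. The counts were 3 higher, beside 10.1% of 12933 genes, and 1 lower, beside 11.1%, and on the combined level 1 higher and 1 lower, beside 7.34% and 9.65%. FBLN2 had 2.47 (1.77 to 3.14) and 1.52 combined, and FBLN1 had 1.74 (1.43 to 2.10) and 0.996 combined. MFAP4 had 1.14 (0.87 to 1.45) and 0.48 combined. Weighted by transcript length, the combined ratio was 0.33 for FBLN1 and 0.46 for MFAP4. ENST00000421373 of FBLN2 and ENST00000476366 of FBLN1, which led with AUF1 siRNA, were listed at 0 with control siRNA. Such a 0 can be a failed estimate, and the annotated ratios of FBLN2 and FBLN1 rest partly on it. FBN2 had 0.81 (0.65 to 0.99), FBN1 0.51 (0.32 to 0.72), EFEMP1 0.46 (0.12 to 0.85), FBLN5 0.45 (0.26 to 0.64) and MFAP5 -0.016 (-1.70 to 2.07), all inside 2-fold. The lower member was ELN, at -2.01 (-2.68 to -1.004). It was kept only through the control siRNA library, so its place as lower follows from how it was kept. Against untransfected PDL 15, MFAP4 with AUF1 siRNA had -1.52, FBLN1 -0.68 and FBLN2 -0.48, so the direction of all 3 turned with the choice of PDL 15 library. In that pair 1 member was at least 2-fold lower, beside 8.95% of genes, and 1, MFAP5 with overlapping bounds, was higher, beside 9.98%. On the combined level 2 were lower and 1 higher, beside 7.37% and 8.27%.

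The HuR siRNA library was set against the same control, although the bounds of ELAVL1 itself overlapped between them. EFEMP1 was higher with HuR siRNA in both forms, and so was FBN2. The counts were 4 higher, beside 10.6% of 12912 genes, and 2 lower, beside 11.7%, and on the combined level 3 higher and 1 lower, beside 7.92% and 10%. EFEMP1 had 1.75 (1.45 to 2.10) and 1.60 combined, and FBN2 had 1.14 (0.98 to 1.32) and 1.14 combined. FBLN2 had 1.89 (1.04 to 2.63) and 0.87 combined, and FBLN1 had 1.17 (0.84 to 1.53) and 0.86 combined. Both were inside 2-fold once assembled transcripts were added. Weighted by transcript length, the combined ratio was -0.54 for FBLN2 and 0.21 for FBLN1. ENST00000421373 of FBLN2 and ENST00000476366 of FBLN1, which led with HuR siRNA, were listed at 0 with control siRNA. The annotated ratios of both rest partly on such a 0, which can be a failed estimate. FBLN5 had -2.01 (-2.29 to -1.73) on the annotated level but 1.18 combined, a change of direction. It is thus among the 3 higher members on the combined level. When that level was weighted by transcript length, the FBLN5 ratio was 0.0019, so neither direction held. MFAP4 had 0.91 (0.64 to 1.22), FBN1 0.37 (0.17 to 0.58) and 0.98 combined, MFAP5 -0.82 (-2.60 to 1.30) and ELN -1.21 (-2.06 to -0.063). ELN, counted as lower on both levels, was kept only through the control siRNA library, so that count follows from how it was kept. Against untransfected PDL 15, EFEMP1 with HuR siRNA had 0.50 and FBN2 0.14, both inside 2-fold, while FBLN1 had -1.27 and MFAP4 -1.76. In that pair 4 members were at least 2-fold lower, beside 8.4% of genes, and 0 were higher, beside 8.89%. The 4 include FBLN5, at -2.93 on the annotated level, 0.26 combined and -0.92 when the combined level was weighted by transcript length. On the combined level 3 were lower and 0 higher, beside 6.61% and 7.47%.

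AUF1 siRNA against HuR siRNA compares the knockdown libraries directly, without the shallower control library. EFEMP1 was lower with AUF1 siRNA, at 38.2 FPKM, against 103 FPKM with HuR siRNA, a ratio of -1.29 (-1.46 to -1.12) and of -1.28 combined. The counts were 1 lower, beside 6.05% of 12929 genes, and 1 higher, beside 6.37%, and on the combined level 1 lower and 0 higher, beside 4.61% and 4.69%. The higher member was FBLN5, at 2.46 (2.27 to 2.66) on the annotated level and -0.73 combined. When the combined level was weighted by transcript length, its ratio was 0.48, so its direction depended on how transcripts were summed. FBLN1 had 0.58 (0.41 to 0.75), FBLN2 0.59 (-0.25 to 1.48), MFAP5 0.81 (-0.50 to 2.18), MFAP4 0.23 (0.14 to 0.32), FBN1 0.14 (0.066 to 0.22), FBN2 -0.33 (-0.39 to -0.27) and ELN -0.80 (-1.19 to -0.38). On this ratio 7 members were thus within 2-fold, and EFEMP1 was the member past it on both levels. The 7 include ELN, at 0.189 FPKM with AUF1 siRNA, against 1.25 FPKM with HuR siRNA, with bounds apart.

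**Figure D3:**
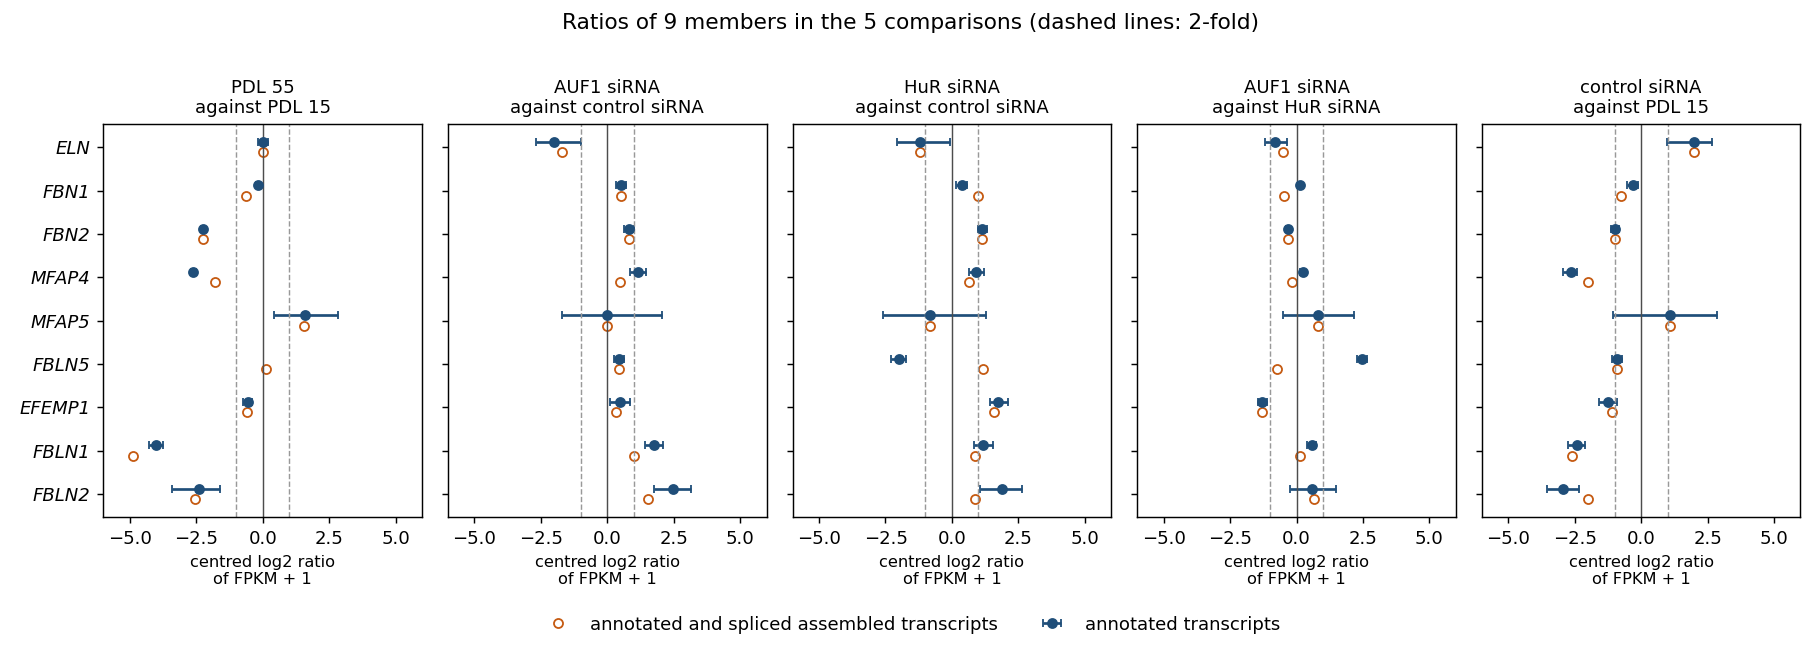
Centred log2 ratios of FPKM + 1 for 9 members in the 5 comparisons; filled points are annotated levels with bars made from the 95% bounds of both libraries, open points are combined levels, and dashed lines mark 2-fold. The FBLN5 point at PDL 55 against PDL 15 is drawn only for the combined level, at 0.14, since the annotated level was listed at 0, and EFEMP1 was below -1 in both forms with AUF1 siRNA against HuR siRNA.

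Because AUF1 and HuR bind AU-rich elements, the 3' untranslated region (UTR) of 1 annotated transcript per member was read. It had the highest mean level among those with a stop codon and a 3' UTR in GENCODE release 29. For EFEMP1, FBN1, FBLN1 and ELN this was not the leading transcript but ENST00000355426, ENST00000316623, ENST00000327858 and ENST00000380553. ENST00000355426 held 27.8% of the EFEMP1 level with HuR siRNA. Each UTR was searched on the transcript strand for ATTTA and for the longer TTATTTA, which contains it. ATTTA was present in 3 of the 9 measured members, EFEMP1, FBN1 and FBN2, and in 56.8% of the 9562 protein-coding genes kept. The same 3 members held TTATTTA, 1 time each, as did 21.6% of those genes. EFEMP1 had 3 ATTTA in 213 nt, FBN1 had 12 in 2684 nt and FBN2 had 6 in 1546 nt, where the median UTR was 573 nt. For EFEMP2, at 0 throughout, no transcript leads, and the one read by its coding length had no ATTTA. FBLN2 and MFAP5 were read in short transcripts, with 122 and 148 nt of UTR, and no match says only that these letters are not in these windows. The TTATTTA sites are shown, since EFEMP1 and FBN2 were the members at least 2-fold higher with HuR siRNA in both forms. Sequences are GENCODE release 29 transcripts, 5′ to 3′ with the motif in capitals, starting 68, 2219 and 389 bases into the UTR for EFEMP1, FBN1 and FBN2 in that order.
EFEMP1: agcactattTTATTTAtagatatat
FBN1: gtctggattTTATTTAttcctgagc
FBN2: tatagatgtTTATTTAtttttaatg
FBN1 held TTATTTA as well and with HuR siRNA against control siRNA had 0.37 annotated and 0.98 combined, both inside 2-fold. Weighted by transcript length, the combined ratios were 1.54 for EFEMP1, 1.23 for FBN1 and 1.20 for FBN2. Against untransfected PDL 15, EFEMP1 with HuR siRNA had 0.50, FBN1 0.021 and FBN2 0.14. With AUF1 siRNA against control siRNA all 3 were inside 2-fold. FBLN1 and FBLN2, without ATTTA in the UTR read, had 1.17 and 1.89 with HuR siRNA against control siRNA on the annotated level. Combined, they had 0.86 and 0.87. A link between these motifs and the levels was not tested.

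For the promoters, 8 windows of 300 bases from RefSeq (GRCh38.p14) matched 6 members: FBLN1, FBLN2, FBLN5, EFEMP2, FBN1 and FBN2. Those of FBLN1, FBLN2 and FBN2 are shown because these members were lower at PDL 55 in both forms. They span the annotated start, mostly upstream of it, are written 5′ to 3′ on the gene's strand, and carry in capitals the motifs GGGCGG and CCAAT in either orientation.
FBLN1, chr22:45502633-45502932, plus strand: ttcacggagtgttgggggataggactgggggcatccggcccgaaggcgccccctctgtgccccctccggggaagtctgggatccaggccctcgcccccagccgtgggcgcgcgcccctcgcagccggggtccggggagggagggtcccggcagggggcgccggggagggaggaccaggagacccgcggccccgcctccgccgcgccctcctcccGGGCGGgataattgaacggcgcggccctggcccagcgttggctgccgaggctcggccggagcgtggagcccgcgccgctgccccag
FBLN2, chr3:13548875-13549174, plus strand: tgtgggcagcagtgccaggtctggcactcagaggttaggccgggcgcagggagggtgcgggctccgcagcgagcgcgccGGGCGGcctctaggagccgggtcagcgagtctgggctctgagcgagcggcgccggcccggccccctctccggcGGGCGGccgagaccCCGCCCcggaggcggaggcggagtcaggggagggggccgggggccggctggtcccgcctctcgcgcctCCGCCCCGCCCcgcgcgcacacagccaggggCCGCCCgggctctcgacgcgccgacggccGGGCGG
FBN2, chr5:128538196-128538495, minus strand: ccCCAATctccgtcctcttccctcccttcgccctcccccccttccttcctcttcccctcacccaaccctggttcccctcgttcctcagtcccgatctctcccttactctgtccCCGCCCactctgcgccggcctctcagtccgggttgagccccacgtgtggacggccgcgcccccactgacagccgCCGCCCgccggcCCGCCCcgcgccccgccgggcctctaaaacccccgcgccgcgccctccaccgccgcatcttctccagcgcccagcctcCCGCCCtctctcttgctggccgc
GC content was 78.0% for FBLN1, 81.0% for FBLN2 and 72.7% for FBN2, where the median of 35116 promoters was 58.7%. In the windows not shown it was 80.7% for EFEMP2, 73.0% and 47.3% for FBLN5, 68.3% for FBN1 and 63.3% for the other FBLN2 window. GGGCGG, the letters of a GC box, was found on either strand 1 time in FBLN1, 7 times in this FBLN2 window and 4 times in FBN2, and in 45.0% of all promoters. The other FBLN2 window and the FBN1 window had none, the 2 FBLN5 windows had 3 and 1, and the EFEMP2 window had 6. CCAAT was in the FBN2 window and in 34.6% of all promoters. TATAAA (11.5% of all promoters), TGANTCA (7.71%) and CAGACA (16.9%) were in none of the 3 windows shown. These matches describe the windows only.

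The partners of elastic fibres were read in 5 further lists at PDL 55 against PDL 15. Their counts stand beside 10.2% of all genes lower and 9.47% higher, and combined 8.76% and 8.41%. In lists this short they are descriptions only. Lysyl oxidases crosslink elastin and collagen, and of 6 crosslinking genes 2 were past 2-fold in the lower direction and 1 in the higher, at a median ratio of -0.076, and combined 1 was lower and 1 higher. LOXL1, the lysyl oxidase most tied to elastin in mice, had 13.4 FPKM at PDL 55, against 41.8 FPKM at PDL 15, a ratio of -1.25 and of -0.996 combined. LOXL2 had 19.0 against 11.3 FPKM in the same order, a ratio of 1.02 and of 1.76 combined, and LOXL3 was listed at 0 at PDL 55, against 15.5 FPKM at PDL 15. The list of fibrillin, fibulin and microfibril partners held 24 symbols, with ADAMTSL6 and THSD4 naming the same gene. Of 10 measured, 3 were lower and none higher, with a median of -0.73, and combined 6 of 11 were lower. THSD4, which promotes microfibril assembly, had 21.2 FPKM at PDL 55, against 116 FPKM at PDL 15, a ratio of -2.08. VCAN, the proteoglycan versican that binds fibrillin and fibulins, had 28.1 FPKM at PDL 55, against 131 FPKM at PDL 15, a ratio of -1.86. MFAP2, a relative of MFAP5 in the same protein family, had 2.73 FPKM at PDL 55, against 8.68 FPKM at PDL 15, a ratio of -1.06, opposite in sign to the 1.58 of MFAP5.

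Latent TGF-beta binding proteins dock latent TGF-beta on microfibrils. Of 7 genes of that list 2 were lower and 1 higher at PDL 55, with a median of -0.044, and combined 1 was lower and 1 higher. LTBP4, which works with fibulin-5 in elastic fibre assembly in mice, had 6.16 FPKM at PDL 55, against 33.6 FPKM at PDL 15, a ratio of -1.95 and of -3.06 combined. LTBP2 was listed at 0 at PDL 55 on the annotated level, and its combined level was 18.0 FPKM at PDL 55, against 25.1 FPKM at PDL 15. TGFB2, a TGF-beta ligand, was higher, with 40.2 FPKM at PDL 55, against 19.1 FPKM at PDL 15, a ratio of 1.36. Of the integrin receptors for fibrillins, fibulins and fibronectin, 1 of 5 measured was lower and 3 were higher, and combined 1 was lower and 1 higher. ITGB5 had 123 FPKM at PDL 55, against 61.9 FPKM at PDL 15, a ratio of 1.31 and of 1.40 combined, ITGB8 had -2.98, and ITGA5 had 1.72 but 0.14 combined. Among the proteases that cut or process elastin and fibrillin, 1 of 7 measured was higher and none lower: CTSK, the elastolytic cathepsin K, had 60.0 FPKM at PDL 55, against 6.64 FPKM at PDL 15, a ratio of 3.32 and of 1.29 combined. MMP2 had -0.91 and CTSL 0.75, both inside 2-fold.

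With the siRNAs against control siRNA, LOX, the founding lysyl oxidase, had 59.1 FPKM with AUF1 siRNA and 95.2 FPKM with HuR siRNA, against 26.7 FPKM with control siRNA, ratios of 0.93 and 1.49. ITGA5 had 30.0 FPKM with AUF1 siRNA and 49.9 FPKM with HuR siRNA, against 5.86 FPKM with control siRNA, ratios of 1.98 and 2.58 that were 1.12 and 2.04 combined. Of the crosslinking genes 1 of 6 was lower and 0 higher with AUF1 siRNA, beside 11.1% and 10.1% of all genes. With HuR siRNA 1 was lower and 1 higher, beside 11.7% and 10.6%. The lower gene was LOXL2 in both, listed at 0 with either siRNA, against 39.7 FPKM with control siRNA. FN1, fibronectin, had 681 FPKM with AUF1 siRNA, against 291 FPKM with control siRNA, but 1390.3 against 4394 FPKM combined, so its direction depended on the transcripts summed.

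The genes with the most similar course over the 5 libraries were found among 6186 protein-coding genes with a mean of at least 5 FPKM, by the root-mean-square difference of log2(FPKM + 1) after each library's median and each gene's mean were subtracted. The closest to FBLN1 were INTS6, PCOLCE and SERPINF1, at 0.33 to 0.43. PCOLCE, an enhancer of procollagen processing, had 7.71 FPKM at PDL 55, against 205 FPKM at PDL 15. For FBLN2 they were ICAM1, SH3D19 and MCM6, for FBLN5 RBBP4, FANCL and HIST1H1E, for EFEMP1 IFT27, CARS2 and S100A6, and for ELN ATP11A, PTPRF and PSMC3. The closest to FBN1 were HSPA1B, MCRS1 and TRIM27, at 0.044 to 0.050. Those of FBN2 were BAALC, ABCC4 and CERS5, those of MFAP4 included OLFML3 and MCM6, and those of MFAP5 were RBM24, KLF5 and UNC119. RBBP4 and FANCL were listed at 0 at PDL 55 like the annotated FBLN5. INTS6, the closest to FBLN1, was also listed at 0 there, and such a 0 can be a failed estimate. Of these 27 places 3 were kept over the 4 libraries other than control siRNA (PCOLCE for FBLN1, RBBP4 for FBLN5 and RBM24 for MFAP5), and 9 with combined levels. Among the members the closest pair was FBLN2 and MFAP4, at 0.48, followed by EFEMP1 and FBN1, at 0.54.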

How the data were processed

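Total RNA of 5 WI-38 libraries was extracted with Trizol, amplified by single-primer isothermal amplification with rRNA removal and sequenced on an Illumina Genome Analyzer, per the labels' protocols. The submitters' processing notes name hg19 as the build and list TopHat2 2.0.6, Cuffdiff and Cufflinks 2.0.2. Strand, read numbers and annotation release were not given in the sources used here. Without strand, reads of overlapping or antisense genes cannot be told apart. The authors deposited, per the file headers, an FPKM value per transcript with its 95% bounds and status. They also deposited a coverage signal, used only to compare depth. Annotated and assembled transcripts are listed side by side. Start positions counted from 0 and had 1 added.

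Of 160485 annotated transcripts, 96.5% received a gene through identifiers (GENCODE release 29) or position, by a span of at least 50% in 1 gene and under 10% in any other. FPKM and bounds were summed per gene, which widens the bounds. Genes were kept with a mean FPKM of at least 1, no transcript of failed status in the libraries compared and no small RNA. Ratios were log2 with a pseudocount of 1, minus the median ratio over genes, which was -0.32 for PDL 55 against PDL 15, 0.19 for AUF1 and 0.31 for HuR siRNA against control siRNA, -0.12 for AUF1 against HuR siRNA and -0.42 for control siRNA against PDL 15. With 1 library per group no test was made, and a difference of at least 2-fold was counted as a description. The code was tested on simulated data. Members, lists and alternatives were chosen with earlier results of these data known, and the combined level was chosen after seeing the data. An assembled transcript counted as spliced when its span exceeded its length by more than 10 nt.

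The named genes were set by rule: all 10 members, up to 3 leading transcripts of each, the 3 genes most like each member (1 is not reported here), up to 3 genes with the largest ratios per list, and the siRNA targets. MUS81, CFL1 and VIM were named after their values were seen. Work was done in Python 3.11.15 with pandas 2.3.3, numpy 2.4.6 and matplotlib 3.10.9.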

Additional observations from a re-analysis of the deposited data

How the results depend on the processing

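No paired analysis was possible because each group has 1 library, and for the same reason no library could be left out of a group. At PDL 55 against PDL 15, the 5 lower members became 4 to 5 under each alternative tried, and the 1 higher member, MFAP5, became 0 with a mean FPKM of at least 5, with 1 annotated transcript per gene and against control siRNA. FBLN5 turned to 0.16 with all assembled transcripts, 0.14 with spliced ones and 0.0044 as fragment mass (FPKM times length) with spliced ones. Against control siRNA the members' median turned to 0.081, FBLN2 to 0.58 and MFAP4 to 0.081. With AUF1 siRNA against control siRNA, the 3 higher members became 1 with all or spliced assembled transcripts, as annotated fragment mass and against untransfected PDL 15, 5 with 1 transcript per gene and 0 as mass with spliced assembled transcripts. The 1 lower became 0 with a mean of at least 5, status OK only, 1 transcript per gene and that mass, under which FBLN2 turned to -0.18. Against PDL 15, FBLN1 turned to -0.68, FBLN2 to -0.48 and MFAP4 to -1.52. With HuR siRNA against control siRNA, the 4 higher became 2 as annotated mass and 0 against PDL 15. The 2 lower became 4 against PDL 15 and 1 without the filter, with a mean of at least 5, with all or spliced assembled transcripts, with status OK only, with 1 transcript per gene, without centring, with equal sums and as mass with spliced assembled transcripts. FBLN5 turned to 1.13, 1.18 and 0.0019 with all assembled, spliced assembled and mass. FBLN1 turned to -0.16 and ELN to 0.10 as annotated mass, and FBLN2 to -0.54 and ELN to 0.11 as mass with spliced assembled transcripts. Against PDL 15, FBLN1 turned to -1.27, FBLN2 to -1.08 and ELN to 0.76. For AUF1 against HuR siRNA, 1 lower became 2 with a pseudocount of 0.1 and as annotated mass, and 1 higher became 2 with that pseudocount and 0 with all or spliced assembled transcripts and as mass with spliced ones, FBLN5 turning to -0.73 with all assembled and -0.73 with spliced ones. For control siRNA against PDL 15, the 2 higher became 1 without the filter, with status OK only, without centring and with upper-quartile or equal-sum scaling, and 0 with a mean of at least 5 and with 1 transcript per gene. The cause was not tested. Of 610 recomputed ratios and medians 390 stayed within the bounds of the reported value, 198 moved outside them and 22 reversed. At PDL 55 against PDL 15, FBLN1 and FBN2 stayed past 2-fold in the same direction under all 13 alternatives, as did EFEMP1 under all 12 for AUF1 against HuR siRNA. Against control siRNA, FBLN1 did so under 8 of 13 with AUF1 and 8 of 13 with HuR siRNA, and FBN2 under 11 of 13 with HuR siRNA.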
